A study of Mus musculus with 11 samples.

Results

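The 53 genes described here are G2 and mitosis genes, the genes whose transcripts build up in cells that have copied their DNA and are preparing to divide. They were followed in mouse liver after acetaminophen (APAP), a drug whose overdose kills the hepatocytes around the central vein and is followed by regrowth of the tissue. Members were chosen by symbol, with earlier results of these data known. Each of the 53 symbols matched 1 of the 31053 genes in the deposited gene table, and all 53 passed the filter on low counts. Expression was measured with Visium, which captures polyadenylated RNA from a frozen tissue section with an array of barcoded spots that can each cover several cells. The 11 sections comprised 3 sections of uninjured liver, called 0 h here (replicates 2, 3 and 4), 2 sections taken 24 h after APAP and 2 taken after 36 h (each time named A and B), and 4 sections taken after 48 h (named A to D). The study's methods give C57BL/6JCrl mice of 8 to 12 weeks, male unless stated otherwise, and for the injury model a fast followed by APAP injected into the peritoneum. The methods give a single mouse per time point for this assay, so n counts sections, p-values measure only the spread between sections, and mouse and time cannot be told apart.

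Entry into mitosis is driven by Cdk1, a kinase that is active only when bound to a B-type or A-type cyclin. Its activity is set by the phosphatase Cdc25c and by kinases such as Plk1. Once active it drives condensation of chromosomes, breakdown of the nuclear envelope and assembly of the spindle. Kinetochores then attach the chromosomes to the spindle, a checkpoint holds the cell until all are attached, and the anaphase-promoting complex with Cdc20 and Ube2c marks the cyclins for destruction so that the cell can divide. Hepatocytes of an uninjured adult liver rarely divide, and loss of liver tissue brings many of them back into the cycle.

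The control regions of many of these genes share short sequence elements: CCAAT boxes, bound by the factor NF-Y, and the cell cycle genes homology region, whose usual form is TTTGAA. RefSeq promoter windows of GRCm38.p6, running from 250 bases before to 50 bases after a gene's start, were found for 46 of the 53 members. Both strands were searched, each element was counted on its own, and matches to different elements may share end letters. TTTGAA stood in the window of 32 of 46 members (69.6%) and of 20.2% of the 27025 genes with a window. CCAAT stood in 36 of 46 members (78.3%) and in 41.1% of all genes, and both together in 26 members (56.5%) against 7.97% of all genes. The rarer form TTCGAA was found in 4 members (8.70%) and in 1.80% of all genes. The 5 windows shown run from 120 bases before to 30 bases after the start, in the direction of transcription. They are shown because Cdk1 and Ccnb1 were among the members already called higher at 36 h, whereas Ccnb2, Cdc20 and Ube2c were called higher only at 48 h. This is a contrast of calls, since both 36 h sections of Cdc20 and Ube2c also lay above every 0 h section. Capitals mark TTTGAA and CCAAT, or their reverse complements TTCAAA and ATTGG.
Cdk1: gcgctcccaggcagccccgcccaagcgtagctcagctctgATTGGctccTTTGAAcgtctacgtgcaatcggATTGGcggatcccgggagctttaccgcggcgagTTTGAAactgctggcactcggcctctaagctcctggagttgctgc
Ccnb1: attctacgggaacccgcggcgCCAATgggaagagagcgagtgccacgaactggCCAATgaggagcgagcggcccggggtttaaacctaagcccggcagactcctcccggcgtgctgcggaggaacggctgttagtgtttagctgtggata
Ccnb2: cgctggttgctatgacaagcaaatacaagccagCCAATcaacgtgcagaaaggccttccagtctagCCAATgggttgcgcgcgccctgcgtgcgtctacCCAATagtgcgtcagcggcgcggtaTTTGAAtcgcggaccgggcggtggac
Cdc20: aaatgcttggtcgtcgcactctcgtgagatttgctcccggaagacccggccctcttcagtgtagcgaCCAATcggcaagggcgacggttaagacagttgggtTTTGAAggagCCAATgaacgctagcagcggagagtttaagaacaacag
Ube2c: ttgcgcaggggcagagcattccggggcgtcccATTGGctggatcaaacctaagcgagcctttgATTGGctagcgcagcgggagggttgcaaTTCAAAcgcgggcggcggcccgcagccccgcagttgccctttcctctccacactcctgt
The windows lie at chr10:69352883-69353032 on the minus strand (Cdk1), chr13:100786457-100786606 on the minus strand (Ccnb1), chr9:70421525-70421674 on the minus strand (Ccnb2), chr4:118437314-118437463 on the minus strand (Cdc20) and chr2:164769809-164769958 on the plus strand (Ube2c). In Ccnb1, the gene for cyclin B1, the printed window holds CCAAT but no TTTGAA, while in Ccnb2, the gene for cyclin B2, it holds 3 CCAAT boxes and 1 TTTGAA. Among members with a window, TTTGAA was present in 15 of the 23 first called at 36 h and in 13 of the 17 first called at 48 h, and CCAAT in 17 and 14. A match of letters is a description of the sequence and was not tested as a binding site.

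Depth was 31292663 to 67045372 UMIs (distinct RNA molecules counted) per section in the spots kept, with section medians of 15168.5 to 29950 UMIs per spot. Levels are given as CPM, the UMIs of a gene scaled to a common section total after TMM scaling. Section A at 48 h stood apart by its spots outside the tissue, which held a median of 10293 UMIs against 952 to 5253.5 in the other sections. The tissue label is liver, and the 7 hepatocyte markers summed to 85325 to 124620 CPM across the sections. The level of a gene in a section mixes the number of cells that make its RNA with the RNA made per cell, and these cannot be told apart here.

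The list as a whole rose late. Its summed level was 267 ± 4.17 CPM at 0 h (SD, n = 3), 289 ± 36.2 at 24 h (n = 2), 332 ± 30.9 at 36 h (n = 2) and 743 ± 198 at 48 h (n = 4). Much of the sum at 0 h came from 12 members that uninjured liver already contained at 3 CPM or more, among them Hjurp, Rangap1, Cks2 and Tmpo. The other 41 members, the low-baseline members, summed to 21.0, 21.8 and 25.2 CPM in the 0 h sections 2, 3 and 4, to 33.1 and 25.0 at 24 h, to 73.8 and 74.1 at 36 h and to 173, 362, 392 and 534 at 48 h in sections A to D. The 24 h section B fell within the 0 h range and section A above it, the 36 h sections lay well above both and close to each other, and the 48 h sections lay above all others but spread over a wide range. This split by baseline was made after the values were seen and is given as a description. The mean log2 CPM over all 53 members was -0.12 at 0 h and 0.06 at 24 h, and rose to 1.28 at 36 h and 3.14 at 48 h.

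**Figure D1:**
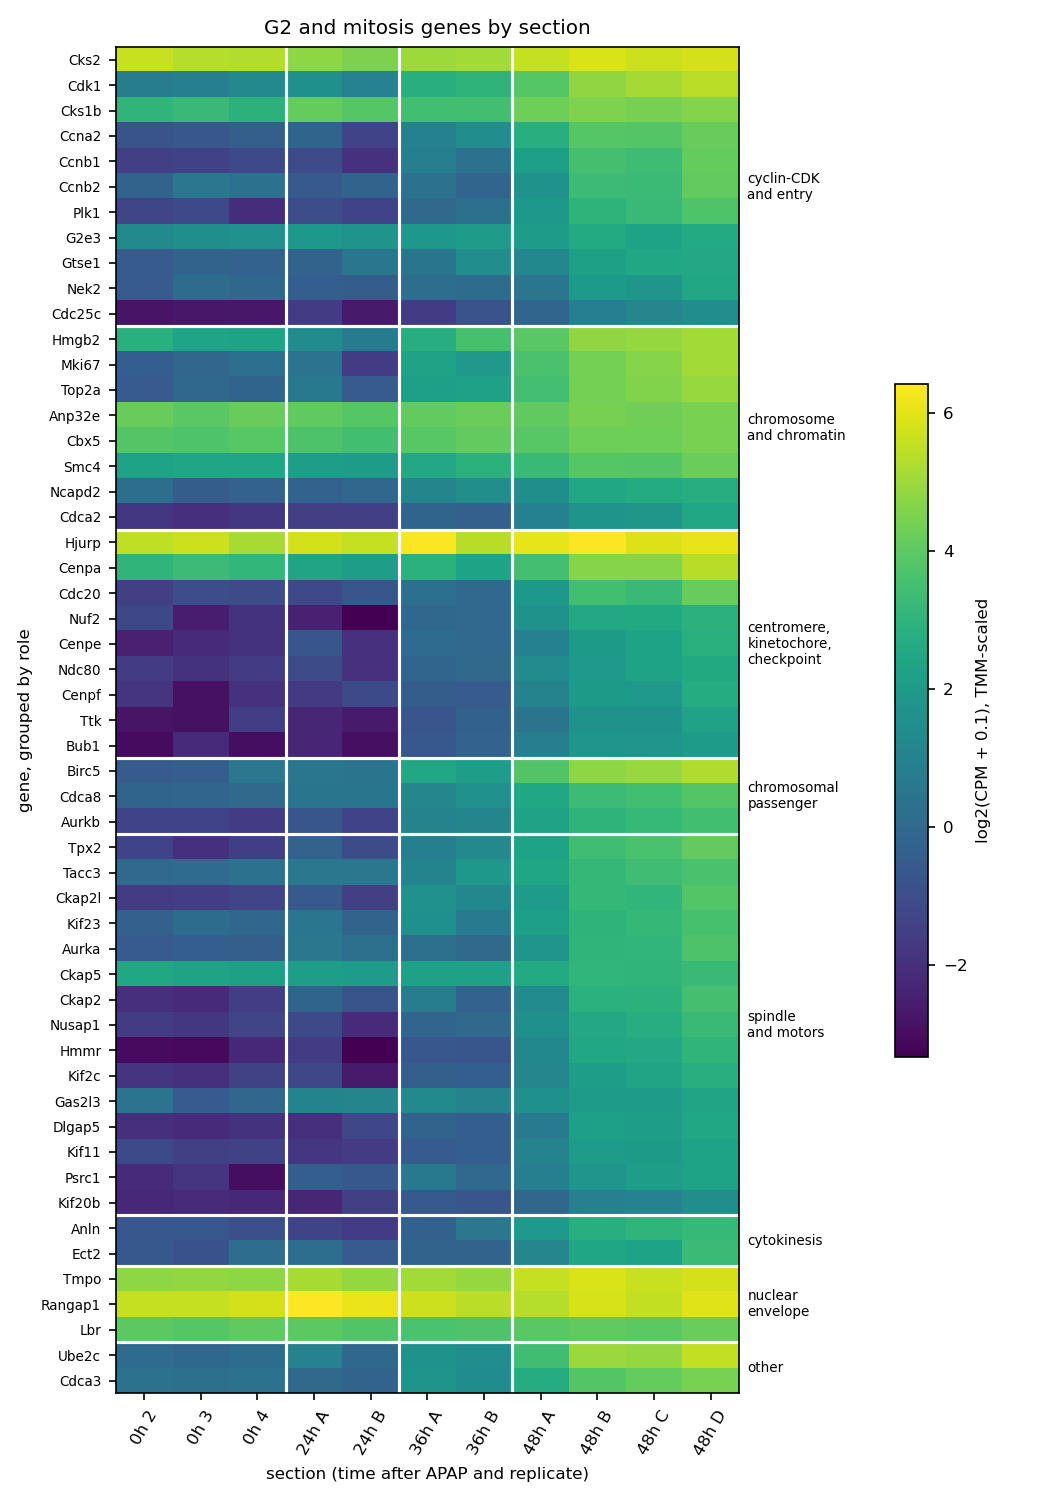
Heat map of the 53 genes (rows, grouped by role and ordered within a role by their 48 h mean) in the 11 sections (columns), coloured by log2(CPM + 0.1). Most rows brighten first at 36 h and most at 48 h, section A is the dimmest of the 48 h sections, and a few rows such as Cks2, Hjurp, Tmpo and Rangap1 are bright in every section.

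Tested gene by gene with edgeR's quasi-likelihood test over 14821 genes, 4 members were called higher at 24 h than at 0 h (adjusted p under 0.05, against 23.1% of all genes tested), 31 at 36 h (16.8% of all genes) and 50 at 48 h (23.3%). Of all genes, 18.6% were called lower at 24 h, and 2 members were. No member was called lower at 36 h, where 2 were lower at an unadjusted p under 0.05 and DESeq2 called 1, or at 48 h, where DESeq2 and the unadjusted threshold also gave 0. The median log2 fold change over the members was 0.31 at 24 h, 1.59 at 36 h and 3.93 at 48 h, beside 0.05, 0.05 and 0.01 over all genes tested. These comparisons share their 0 h sections. By the first time at which a member was called higher, 4 members were first called at 24 h, 29 at 36 h and 18 at 48 h. Anp32e and Lbr were not called higher at any time. A first call depends on the threshold and is not itself an onset. Rangap1, first called at 24 h, was not called against 0 h at 36 h or 48 h. Ube2c, Cdc20, Kif2c and Kif11, first called at 48 h, already had both 36 h sections above every 0 h section. The same held for Aurka, Anln, G2e3 and Smc4, and by a narrow margin for Nek2, Tmpo and Cbx5, all first called at 48 h. The count at 36 h was 19 without 0 h section 2 and 18 without 0 h section 3 or without 36 h section B, and the count at 24 h was 2 without 24 h section A and 7 without 48 h section A. Scaling by the total count in place of TMM raised the median log2 fold change over all genes to 0.37, 0.49 and 0.54 at 24 h, 36 h and 48 h, and 10, 44 and 53 members were then called higher. In 43 of 53 members both 36 h sections lay above all 0 h sections (29.8% of all genes did so), and in 48 of 53 all 48 h sections did (27.9% of all genes).

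Against the preceding time, 15 members were called higher at 36 h than at 24 h (7.04% of all genes) and 2 lower (8.58%; 0 with total-count scaling), and 37 were called higher at 48 h than at 36 h (1.62% of all genes). In 48 of 53 members every 48 h section lay above both 36 h sections, against 12.8% of all genes. The count for 36 h against 24 h was 3 without 24 h section A or 36 h section B, 1 without 24 h section B and 26 without 48 h section A. The count for 48 h against 36 h was 4 without 36 h section A, 22 without 36 h section B, 3 without 48 h section B, 4 without 48 h section C and 46 without 48 h section A. Both counts were 0 in a fit on the compared groups alone. The single calls of Cdk1, Ccnb2, Cdc20, Cenpa, Mki67 and Ube2c for 48 h against 36 h were lost without either 36 h section, without 48 h section B and without 48 h section C. Against 24 h, 49 members were higher at 48 h (16.2% of all genes) and 1, Rangap1, was lower (17.8% of all genes, and 0 members with total-count scaling).

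Within the cyclin and kinase group of 11 genes that bring about entry into mitosis, 6 were called higher at 36 h and all 11 at 48 h. Cdk1 was at 1.65, 1.77 and 2.29 CPM in the 0 h sections 2, 3 and 4, at 2.86 and 1.88 at 24 h in A and B, at 6.92 and 7.93 at 36 h, and at 14.5, 27.9, 34.5 and 42.3 at 48 h in A to D. Its 36 h and 48 h values did not overlap those of any earlier time. The log2 fold change of Cdk1 was 1.97 ± 0.39 (SE, adjusted p = 0.0055) at 36 h and 3.98 ± 0.36 (adjusted p = 4.6e-05) at 48 h. Cyclin A2, encoded by Ccna2, rose from 0.48 to 0.68 CPM at 0 h to 6.98 to 17.6 CPM at 48 h, a log2 fold change of 4.57 ± 0.40. Cdc25c, the phosphatase gene, had means of 0.0519, 0.15, 0.344 and 1.86 CPM at 0 h, 24 h, 36 h and 48 h, and Gtse1, whose product binds microtubules and restrains p53, of 0.694, 1.03, 1.99 and 4.56 CPM. The kinase gene Plk1, which acts at many steps of mitosis, rose by 4.94 ± 0.49 on the log2 scale at 48 h.

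The B-type cyclins, which share the partner Cdk1, differed in their course. Ccnb1 was at 0.26, 0.28 and 0.34 CPM in the 0 h sections, at 0.39 and 0.16 at 24 h, at 1.77 and 1.17 at 36 h, and at 4.43, 11.8, 10.5 and 17.1 at 48 h. Both 36 h sections were above every earlier section, with a log2 fold change over 0 h of 2.33 ± 0.58 (adjusted p = 0.015) whose call was lost without 0 h section 2, 0 h section 3 or 36 h section A. Ccnb2 was at 0.77, 1.36 and 1.19 CPM at 0 h, at 0.58 and 0.77 at 24 h, at 1.16 and 0.80 at 36 h, and at 3.07, 10.3, 9.91 and 16.8 at 48 h. Its 24 h and 36 h values lay within or below the 0 h range, and only the 48 h sections stood clear, with a log2 fold change of 3.17 ± 0.51 over 0 h (adjusted p = 8.3e-04) and 3.35 ± 0.63 over 36 h (adjusted p = 0.026). The ratio of Ccnb2 to Ccnb1 was 2.92 to 4.93 at 0 h, 1.5 and 4.80 at 24 h, 0.656 and 0.683 at 36 h and 0.693 to 0.981 at 48 h. By UMIs, not corrected for transcript length, Ccnb2 exceeded Ccnb1 in every 0 h and 24 h section and Ccnb1 exceeded Ccnb2 in every 36 h and 48 h section. This difference in course was not tested as such.

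The small Cdk-binding proteins encoded by Cks1b and Cks2 also parted. Cks1b, whose product also helps the ubiquitin ligase SCF remove the inhibitor p27, was at 8.25, 9.46 and 7.65 CPM at 0 h, 17.1 and 14.4 at 24 h, 11.1 and 11.1 at 36 h, and 19.3, 23.2, 21.4 and 24.2 at 48 h. It was high at 24 h, lower at 36 h and highest at 48 h, with no overlap between neighbouring times. The log2 fold change was 0.90 ± 0.13 (adjusted p = 5.1e-04) at 24 h against 0 h, -0.51 ± 0.15 (adjusted p = 0.042, a call lost with total-count scaling and without any 1 section other than 48 h A and D) at 36 h against 24 h and 1.38 ± 0.12 (adjusted p = 2.6e-05) at 48 h against 0 h. Cks2 was at 49.2, 39.9 and 39.2 CPM at 0 h, 27.0 and 22.3 at 24 h, 31.7 and 33.9 at 36 h, and 47.7, 58.8, 51.4 and 56.2 at 48 h. It fell at 24 h by 0.79 ± 0.14 on the log2 scale (adjusted p = 0.0014), and the 48 h sections overlapped the highest 0 h section, with a log2 fold change of 0.32 ± 0.12 (adjusted p = 0.041) whose call was lost without either of the 0 h sections 3 and 4 or any of the 48 h sections B, C and D. Nek2, a centrosome kinase gene, was at 0.62 to 0.98 CPM at 0 h, 1.04 and 0.999 at 36 h and 1.32 to 5.52 at 48 h. G2e3, a ubiquitin ligase gene expressed in G2, was at 2.47, 2.82 and 2.97 CPM at 0 h, 3.57 and 3.16 at 24 h, 3.59 and 3.94 at 36 h, and 4.13, 6.20, 4.95 and 6.17 at 48 h. Every injured section lay above the 0 h range. It rose by 0.96 ± 0.17 on the log2 scale at 48 h, less than the median member.

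**Figure D2:**
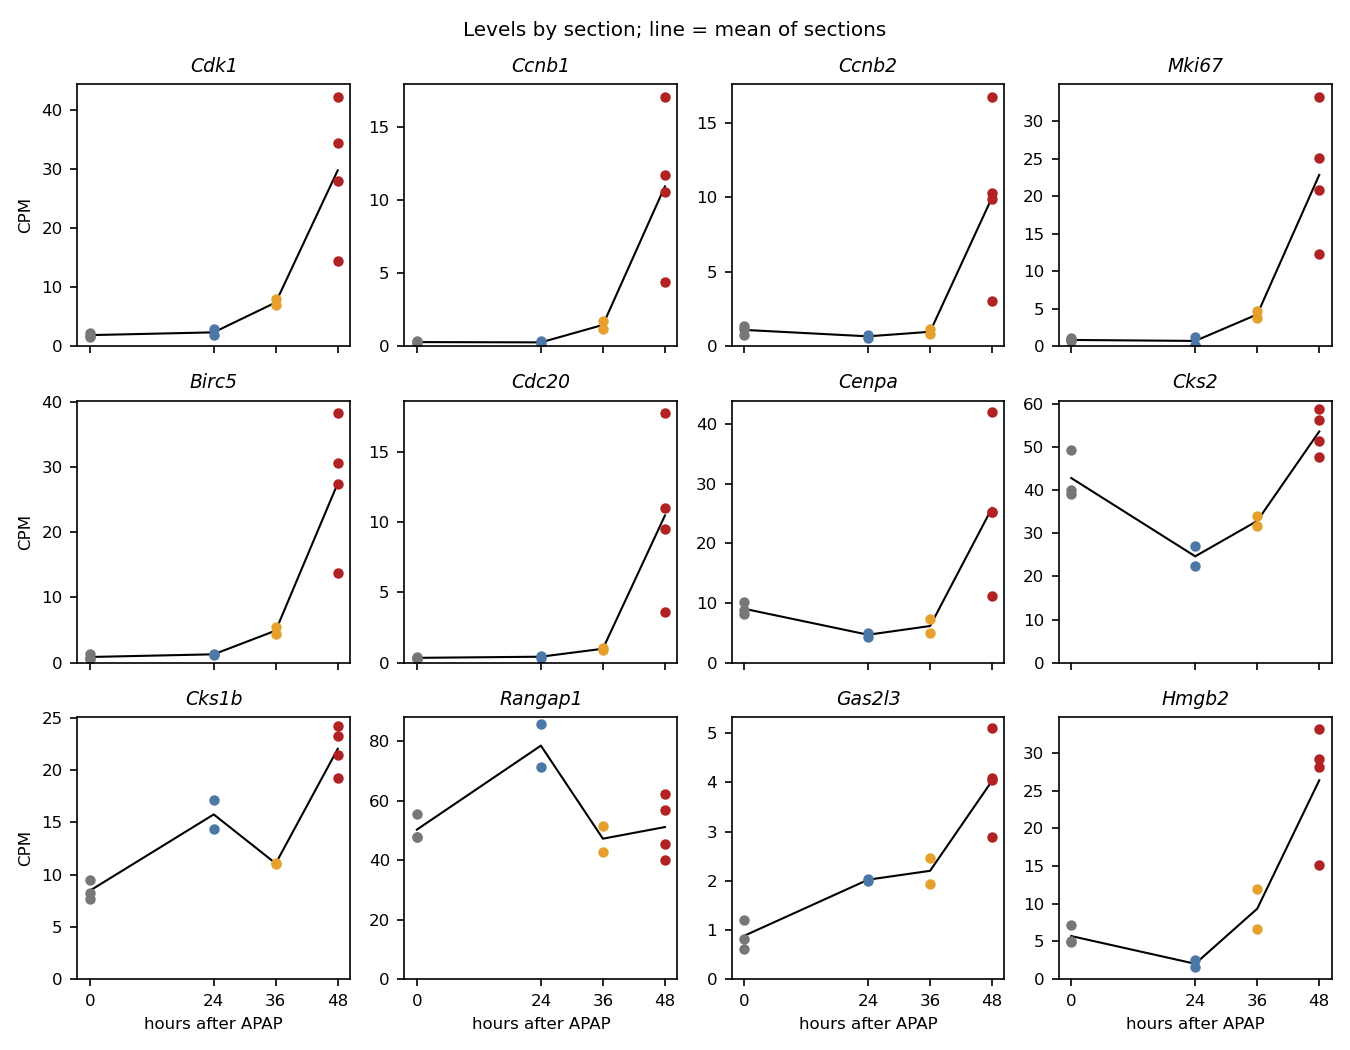
CPM of 12 genes against hours after APAP, one point per section and a line through the means of the sections at each time, with each panel starting at 0. The 36 h points of Cdk1, Ccnb1, Mki67, Birc5 and Cdc20 lie above their 0 h points, those of Ccnb2 lie within the 0 h range and those of Cenpa below it, and Cks1b and Rangap1 stand higher at 24 h than at 0 h and 36 h.

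Among the 8 chromosome and chromatin genes, 4 were called higher at 36 h and 7 at 48 h. Mki67, the gene for the proliferation marker Ki-67 that coats mitotic chromosomes, was at 0.66, 0.83 and 1.07 CPM at 0 h, 1.23 and 0.22 at 24 h, 4.75 and 3.77 at 36 h, and 12.3, 20.8, 25.1 and 33.2 at 48 h. Its 24 h sections fell on either side of the 0 h range, and the later sections lay above it. Its log2 fold change was 2.33 ± 0.52 (adjusted p = 0.0091) at 36 h and 4.75 ± 0.48 (adjusted p = 7.0e-05) at 48 h. Top2a, the topoisomerase that untangles sister chromatids, rose as well (2.59 ± 0.42 at 36 h and 4.83 ± 0.39 at 48 h). Ncapd2, a condensin subunit gene, was 1.59 ± 0.37 higher at 36 h on the log2 scale, a call lost without 36 h section B. Smc4, another condensin subunit gene, had means of 5.19 CPM at 0 h and 14.1 at 48 h, and Cdca2, which targets a phosphatase to chromosomes, of 0.181 and 3.52 CPM. Hmgb2, a chromatin-bending protein gene, was at 7.13, 5.08 and 4.91 CPM at 0 h, 2.49 and 1.56 at 24 h, 6.66 and 12.0 at 36 h, and 15.1, 28.1, 29.2 and 33.2 at 48 h. It dropped below every 0 h section at 24 h, by 1.47 ± 0.40 on the log2 scale (adjusted p = 0.014, a call lost without 24 h section B), before it rose by 48 h (2.21 ± 0.31, adjusted p = 4.1e-04). Cbx5, the gene for heterochromatin protein HP1-alpha, had a small log2 fold change (0.43 ± 0.13 at 48 h, adjusted p = 0.022) whose call was lost without 0 h section 2, 0 h section 3 or 48 h section D. Anp32e, a chaperone gene for the histone H2A.Z, was at 17.8, 15.3 and 17.9 CPM at 0 h, 16.4 and 14.2 at 24 h, 16.7 and 18.2 at 36 h, and 16.2, 21.4, 19.6 and 22.0 at 48 h. Its 48 h sections overlapped the 0 h range, and the log2 difference of 0.22 ± 0.12 was not called (adjusted p = 0.16), except with total-count scaling (0.75) and without 48 h section A (0.30).

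Of the 9 genes of the centromere, kinetochore and checkpoint, 6 were called higher at 36 h and all 9 at 48 h. Bub1, a checkpoint kinase gene, had 1, 7 and 1 UMIs in the 0 h sections and 116, 166, 231 and 279 at 48 h (log2 fold change 5.51 ± 0.53). Ndc80 and Nuf2, which join the kinetochore to microtubules, had means of 0.204 and 0.191 CPM at 0 h and 4.30 and 5.62 at 48 h. Cenpe, Cenpf and the checkpoint kinase gene Ttk reached 4.43, 3.99 and 3.10 CPM at 48 h from 0.129, 0.127 and 0.112 CPM. Cdc20, the activator of the anaphase-promoting complex, was at 0.26, 0.40 and 0.37 CPM at 0 h, 0.34 and 0.51 at 24 h, 1.07 and 0.91 at 36 h, and 3.61, 11, 9.50 and 17.7 at 48 h. Both 36 h sections were above the 0 h sections (1.51 ± 0.65, adjusted p = 0.10, not called), and the rise at 48 h was 4.90 ± 0.54 over 0 h (adjusted p = 1.1e-04) and 3.39 ± 0.58 over 36 h (adjusted p = 0.022). Cenpa, the histone variant that marks the centromere, was at 8.12, 10.3 and 8.76 CPM at 0 h, 5.03 and 4.34 at 24 h, 7.30 and 4.99 at 36 h, and 11.2, 25.2, 25.3 and 42.0 at 48 h. Every 24 h and 36 h section lay below the 0 h range and every 48 h section above it, with a log2 fold change of 1.52 ± 0.36 at 48 h (adjusted p = 0.0068). Hjurp, the chaperone gene for Cenpa, was abundant throughout, at 44.9, 50.8 and 35.8 CPM at 0 h, 55.7 and 47.9 at 24 h, 83.2 and 41.7 at 36 h, and 67.5, 82.9, 59.4 and 66.8 at 48 h. Its 36 h sections differed by more than the whole rise to 48 h, which was 0.66 ± 0.22 (adjusted p = 0.032) and lost its call without any of the 0 h sections 2 and 4 or the 48 h sections A and B.

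The 3 genes of the chromosomal passenger complex, which corrects faulty attachments and guides cytokinesis, were all called higher at 36 h and at 48 h. Birc5, the gene for survivin, was at 0.62, 0.66 and 1.36 CPM at 0 h, 1.33 and 1.24 at 24 h, 5.50 and 4.34 at 36 h, and 13.8, 27.4, 30.5 and 38.2 at 48 h. Its log2 fold change was 2.53 ± 0.44 at 36 h and 5.01 ± 0.41 at 48 h (adjusted p = 0.0032 and 2.9e-05). Aurkb, the kinase of the complex, rose by 2.88 ± 0.37 at 36 h and 4.91 ± 0.34 at 48 h. Cdca8, the gene for borealin, was at 0.792, 0.81 and 0.932 CPM at 0 h, 1.27 and 1.28 at 24 h, 2.17 and 2.91 at 36 h, and 5.72, 10.0, 11.1 and 13.9 at 48 h. Its sections at each time lay above those of the time before, and it rose by 3.60 ± 0.30 at 48 h. Aurka, the related kinase of the spindle poles, was at 0.62 to 0.68 CPM at 0 h, 1.38 and 1.12 at 24 h, 1.10 and 0.94 at 36 h and 3.29 to 12.8 at 48 h. Aurka was first called at 48 h (3.65 ± 0.42), when Aurkb had been called at 36 h, and the difference between the kinases was not tested.

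Among the 15 spindle and motor genes, 2 were called higher at 24 h and 11 at 36 h, and at 48 h all 15 were. Tpx2, which activates Aurka on the spindle, was at 0.29, 0.15 and 0.25 CPM at 0 h, 0.73 and 0.38 at 24 h, 1.74 and 2.28 at 36 h, and 4.97, 10.8, 12.2 and 16.8 at 48 h. It was above the 0 h range in each injured section, though at 24 h not by the test, and its log2 fold change was 3.15 ± 0.55 at 36 h and 5.63 ± 0.50 at 48 h. Tacc3, a microtubule-crosslinking protein gene, was at 0.902, 0.957 and 1.19 CPM at 0 h, 1.40 and 1.40 at 24 h, 2.03 and 3.57 at 36 h, and 5.37, 9.02, 10.7 and 12.4 at 48 h. Like Tpx2 it lay above the 0 h range in every injured section. It rose by 3.21 ± 0.31 at 48 h, and Kif11, the motor that pushes the spindle poles apart, by 3.63 ± 0.34. Hmmr had the highest fold change of the list at 48 h, 6.83 ± 0.78 on the log2 scale, where the 0 h sections held 1, 1 and 4 UMIs and the 48 h sections 153, 270, 408 and 563, so that the fitted size depends on the prior count. The motors Kif2c, Kif20b and Kif23 had 48 h means of 4.62, 1.83 and 8.32 CPM and 0 h means of 0.202, 0.117 and 0.848. The microtubule-binding genes Nusap1, Dlgap5, Ckap2 and Ckap2l had 48 h means of 6.14, 3.97, 7.23 and 8.83 CPM and 0 h means of 0.244, 0.151, 0.179 and 0.257. The members called at 24 h were Psrc1, a spindle gene regulated by p53, and Gas2l3, whose product links actin and microtubules. Psrc1 was at 0.13, 0.18 and 0.03 CPM at 0 h, 0.65 and 0.54 at 24 h, 1.45 and 0.91 at 36 h, and 1.75, 3.34, 4.16 and 4.88 at 48 h. Gas2l3 was at 1.21, 0.61 and 0.82 CPM at 0 h, 2 and 2.04 at 24 h, 2.46 and 1.94 at 36 h, and 2.90, 4.05, 4.09 and 5.10 at 48 h. Both genes stood above the 0 h range in every injured section. At 24 h their log2 fold changes were 2.26 ± 0.61 (adjusted p = 0.012, a call of Psrc1 lost without 24 h section A) and 1.20 ± 0.31 (adjusted p = 0.010). Ckap5, a microtubule polymerase gene, was at 5.44, 4.88 and 4.55 CPM at 0 h, 4.28 and 3.99 at 24 h, 4.72 and 4.62 at 36 h, and 6.18, 8.37, 8.25 and 9.64 at 48 h. It stayed within or below the 0 h range until 36 h and rose by 0.71 ± 0.15 at 48 h.

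Of the 2 genes grouped under cytokinesis, neither was called against 0 h before 48 h, while Kif23, a motor of the spindle group that also acts in cytokinesis, was called at 36 h (1.37 ± 0.43, adjusted p = 0.037). Anln, the gene for anillin in the contractile ring, was at 0.53, 0.53 and 0.42 CPM at 0 h, 0.30 and 0.22 at 24 h, 0.72 and 1.34 at 36 h, and 3.76, 7.09, 8.12 and 9.20 at 48 h. Ect2, which switches on RhoA at the division site, was at 0.55, 0.44 and 1.02 CPM at 0 h, 1.05 and 0.61 at 24 h, 0.75 and 0.77 at 36 h, and 2.16, 5.15, 4.89 and 9.88 at 48 h. Both 36 h sections of Anln lay above every earlier section, with a log2 fold change of 1.05 ± 0.42 against 0 h (adjusted p = 0.082) and a call against 24 h (1.94 ± 0.51, adjusted p = 0.031). Ect2 stayed within the 0 h range at 36 h. Both genes were first called against 0 h at 48 h (3.81 ± 0.35 for Anln and 3.07 ± 0.51 for Ect2). Ube2c, the ubiquitin-conjugating enzyme gene of the anaphase-promoting complex, was at 0.97, 0.85 and 0.99 CPM at 0 h, 1.89 and 0.89 at 24 h, 3.16 and 2.63 at 36 h, and 10.8, 31.2, 29.7 and 45.6 at 48 h. Both 36 h sections of Ube2c lay above every 0 h section, though the gene was not called at 36 h against 0 h. Ube2c levels at 48 h were 3.34 ± 0.53 higher on the log2 scale than at 36 h and 4.98 ± 0.50 higher than at 0 h. Cdca3, which helps degrade the mitosis inhibitor Wee1, was at 1.14, 1.10 and 1.13 CPM at 0 h, 0.946 and 0.766 at 24 h, 3.22 and 2.57 at 36 h, and 6.46, 14.1, 17.3 and 22.0 at 48 h. Its 24 h sections lay below and the later sections above the 0 h range. Cdca3 rose by 3.73 ± 0.38 at 48 h.

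The 3 genes of the nuclear envelope and nuclear transport had smaller log2 fold changes at 48 h over 0 h, 0.02 to 0.91, than the median member (3.93). Rangap1, which activates the GTPase of the transport factor Ran, was at 47.8, 47.7 and 55.4 CPM at 0 h, 85.9 and 71.3 at 24 h, 51.6 and 42.9 at 36 h, and 40.1, 56.8, 45.6 and 62.2 at 48 h. Its 24 h sections lay above all others, and the 36 h and 48 h sections fell on either side of or within the 0 h range. It was higher at 24 h by 0.64 ± 0.18 (adjusted p = 0.015), lower at 36 h than at 24 h by a log2 difference of -0.73 ± 0.20 (adjusted p = 0.035), and lower at 48 h than at 24 h (-0.62 ± 0.17, adjusted p = 0.018). These falls were not called with total-count scaling (adjusted p = 0.065 and 0.082). The fall to 36 h also lost its call without any 0 h or 24 h section or 36 h section B, the fall to 48 h without 24 h section A, and the rise at 24 h lost its call without 0 h section 2, 0 h section 3 or 24 h section A. At 48 h against 0 h the difference was 0.02 ± 0.15 (adjusted p = 0.91), with a 95% interval from -0.28 to 0.33, but it was 0.55 and called with total-count scaling, and its sign turned, to between -0.01 and -0.08, without 0 h section 2, 0 h section 3, 48 h section B or 48 h section D. Tmpo, the gene for the lamin-binding protein LAP2, was at 27.5, 29.0 and 27.4 CPM at 0 h, 35.1 and 29.8 at 24 h, 34.0 and 29.3 at 36 h, and 47.1, 58.1, 48.8 and 56.0 at 48 h. Its 48 h sections stood clear of all others (0.91 ± 0.11 over 0 h, adjusted p = 1.2e-04). Lbr, the lamin B receptor gene, was at 15.6, 14.4 and 16.4 CPM at 0 h, 15.6 and 13.7 at 24 h, 12.5 and 13.2 at 36 h, and 15.0, 16.5, 15.6 and 18.1 at 48 h. Its 48 h and 0 h sections overlapped (0.08 ± 0.10, adjusted p = 0.51, but 0.61 and called with total-count scaling).

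Onset was compared between members by the share of the 0 h to 48 h rise in CPM that was present at 36 h. This share also depends on the size of the rise, so it does not measure onset alone. Hmmr, at 106 times its 0 h mean at 48 h, had a share of 8.70%. Its log2 step from 36 h to 48 h nonetheless differed by only -0.07 from its step from 0 h to 36 h. Hjurp, G2e3 and Cbx5, with high shares, reached only 1.58, 1.95 and 1.35 times their 0 h means. Over the 50 members called higher at 48 h the median share was 15.8%, and over the 41 low-baseline members it was 15.5%, with a range from -1.43% (Ccnb2) to 41.9% (Gas2l3). The highest shares of the 50 were those of Hjurp (73.6%, but 156% by 36 h section A and -8.37% by section B), Gas2l3 (41.9%) and G2e3 (38.9%), followed by Ncapd2 (35.6%) and Cbx5 (35.3%). The lowest were those of Cks2 (-92.1%), Cenpa (-17.2%) and Ckap5 (-8.90%), which lay below their 0 h level at 36 h. Ect2 (1.90%), Aurka (4.90%), Cdc20 (6.40%), Ube2c (6.89%), Nek2 (7.31%) and Anln (8.21%) also had little of their rise by 36 h. In contrast, Ckap2l (27.2%), Aurkb (21.8%), Cdk1 (19.8%), Bub1 (19.3%) and Top2a (18.2%) were above the median. Whether a member's step from 36 h to 48 h exceeded its step from 0 h to 36 h on the log2 scale was tested for each gene. The test called 1 member, Cks2 (difference of steps 1.09, adjusted p = 0.031), against 2.38% of all genes, and 10 members had an unadjusted p under 0.05. The call was lost with total-count scaling and without 0 h section 2, 0 h section 3, 36 h section A, 36 h section B or 48 h section B, and 4 members were called without 48 h section A. The largest differences of steps, which did not pass after adjustment, were those of Ccnb2 (3.53, adjusted p = 0.096), Cenpa (2.63, adjusted p = 0.081), Ect2 (2.63, adjusted p = 0.18) and Aurka (2.35, adjusted p = 0.13).

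**Figure D3:**
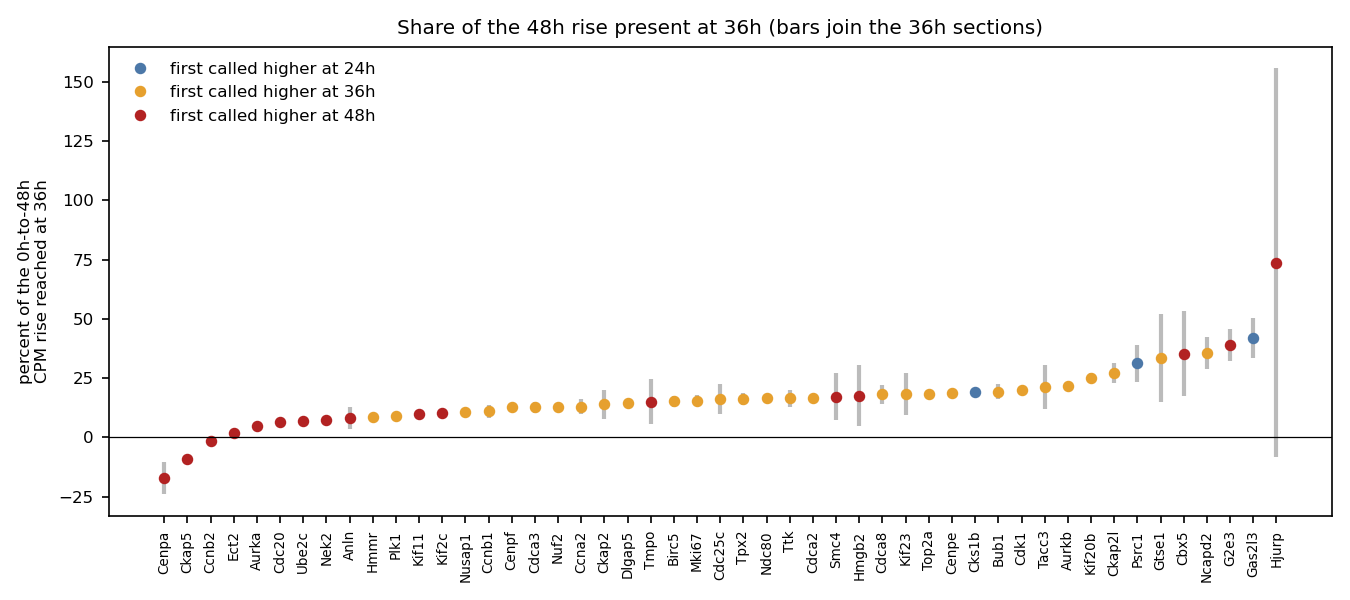
Percent of the 0 h to 48 h rise in CPM reached at 36 h for 49 of the 50 genes called higher at 48 h (Cks2, at -92.1%, is left off), sorted, with grey bars joining the 36 h sections A and B and colours giving the time of the first call. The lowest points are those of Cenpa, Ckap5, Ccnb2 and Ect2, and the bar of Hjurp spans most of the axis.

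At 48 h most members had their lowest and highest levels in the same sections. Section A had the lowest level of the 4 in 52 of 53 members and section D the highest in 49. The same order was not counted over all genes, so these counts cannot tell a trait of the list from a shift of whole sections. Section A was also the section with a median of 10293 UMIs in its spots outside the tissue. Summed phagocyte markers (7 genes, none at 0) were also lowest in A and highest in D, at 669, 789, 1198 and 1284 CPM in A to D. Gene by gene, Lyz2 (407, 516, 751 and 897 CPM) and Clec4f had this order. Cd68, Csf1r, Adgre1, Itgam and Cd14 were highest in C, and Itgam and Cd14 were lowest in D. Mesenchyme markers (8 genes, none at 0) were lowest in A at 680 CPM and stood at 860, 1481 and 1422 CPM in B, C and D. At 0 h the phagocyte markers summed to 454 to 489 CPM and the mesenchyme markers to 253 to 290 CPM, at 24 h to 496 to 504 and 200 to 246 CPM, and at 36 h to 406 to 595 and 231 to 573 CPM. The part of these cells in the rise of the members was not tested.

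Other cell cycle lists were counted in the same comparisons, in which 23.1%, 16.8% and 23.3% of all genes were called higher at 24 h, 36 h and 48 h. Of 43 S-phase genes, which act in DNA replication, 14 were called higher at 24 h, 28 at 36 h and 38 at 48 h, with median log2 fold changes of 0.46, 0.88 and 1.87. Mcm6, a subunit of the replicative helicase, had means of 3.85, 12.1, 19.2 and 37.3 CPM at 0 h, 24 h, 36 h and 48 h, and Ccne1, the gene for cyclin E1 of the G1 to S transition, of 0.64, 3.35, 4.32 and 6.36 CPM. Both were called higher at 24 h, as were the members Cks1b, Psrc1, Gas2l3 and Rangap1, whereas Cdk1, Ccnb1 and Mki67 were not. The summed low-baseline members were 0.0746 to 0.0866 of the summed S-phase genes at 0 h, 0.0907 and 0.0762 at 24 h, 0.189 and 0.184 at 36 h and 0.353 to 0.778 at 48 h. The S-phase list was not cut by baseline, so these sums are not matched in their level at 0 h. Of 47 further mitosis genes that are not on the list, 6 were called higher at 24 h, 27 at 36 h and 44 at 48 h. Among them were Prc1 of the central spindle (0.229 CPM at 0 h and 9.49 at 48 h) and Incenp, the scaffold of the passenger complex (1.39 and 14.2 CPM). Of 28 regulators of these genes and of G2, 10, 14 and 19 were called higher at 24 h, 36 h and 48 h. Foxm1, a transcription factor of G2 genes, had means of 0.309, 0.535, 1.57 and 6.64 CPM over the times. Of 12 G1 genes tested, 3, 4 and 7 were called higher. At 24 h, 2 S-phase genes, 3 further mitosis genes, 3 regulators and 2 G1 genes were called lower, where 18.6% of all genes were. The genes of these lists called lower at 48 h, named after their values were seen, were Mrpl36 of the S-phase list (-0.35 on the log2 scale), Pttg1, the gene for securin (-0.67), and the regulators Rbl2 (-0.58) and Rbbp4 (-0.68).

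Spots were then compared within sections. After each spot was thinned to 5000 UMIs, a spot held UMIs of 0.995 members on average at 0 h and 1.34 at 24 h, and of 1.65 at 36 h and 3.83 at 48 h. The share of spots without a UMI of any low-baseline member was 90.6% to 91.6% at 0 h, 85.3% and 88.4% at 24 h, 68.1% and 68.9% at 36 h, and 49.0%, 26.3%, 22.4% and 12.7% at 48 h in A to D. Spots with UMIs of 5 or more low-baseline members were at most 0.104% of spots in a section before 48 h and made up 2.09%, 10.5%, 12.6% and 20.9% of spots at 48 h. Cdk1 was detected in 0.815% ± 0.132 of spots at 0 h (SD, n = 3) and in 15.0% ± 5.36 at 48 h (n = 4), and Ube2c in 0.436% ± 0.091 and 14.4% ± 6.57. Spots outside the tissue also held these UMIs, at 12.8 to 15.5 CPM of the unscaled total at 0 h and 166 to 579 at 48 h, beside 16.6 to 19.7 and 198 to 608 CPM in the spots kept. The part of RNA outside the tissue in these shares was not tested.

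The UMIs were not spread evenly over the 48 h sections. The variance of the low-baseline sum across spots was 1.87 to 2.60 times its mean at 48 h and 0.988 to 1.33 times before. Moran's I, which is near 0 when neighbouring spots are unrelated and nears 1 when they are alike, was 0.183, 0.211, 0.276 and 0.275 at 48 h in A to D and -0.0167 to 0.0547 in the other sections. Spots adjacent to a spot with 5 or more low-baseline UMIs held 1.40 to 1.81 times the section mean at 48 h, from 92 to 562 such spots per section. Before 48 h a section had at most 2 such spots, too few to compare, with ratios from 0 to 2.92. Across spots of a 48 h section the low-baseline sum correlated with the S-phase sum at r = 0.395 to 0.524, with the phagocyte and mesenchyme marker sum at r = 0.492 to 0.619, with the endothelial marker sum at r = 0.257 to 0.334 and with the hepatocyte marker sum at r = -0.576 to -0.459 (1489 to 3343 spots per section, all at the same 5000 UMIs). These are correlations between spots that share a library and neighbours, given as a description. Detection of 5 pairs of members in the same spot was counted. Of the spots with a UMI of Mki67, 14.7%, 17.3%, 21.6% and 20.2% also held Top2a at 48 h in A to D, beside 4.98%, 9.98%, 10.5% and 13.3% of the spots without Mki67. For Ccnb1 and Ccnb2 these shares were 5.48%, 8.82%, 9.15% and 12.9% against 1.62%, 4.90%, 5.57% and 8.60%. The share with was above the share without in all 4 sections for the other 3 pairs too. The gap was small for Cdk1 and Ccnb1 in A (2.41% against 2.17%) and for Top2a and Cdc20 in A (2.70% against 1.93%) and D (10.6% against 8.52%). At 36 h no pair was found together in more than 2 spots of a section. Top2a was then in 1.79% of the spots with Mki67 and 2.31% of those without it in section A.

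The 25% of spots richest in phagocyte and mesenchyme markers (marker-rich) was compared with the 50% poorest in them (marker-poor) in each section, on summed counts with the section as a block. At 48 h, 51 of 53 members were higher in marker-rich spots (37.9% of 14053 genes tested were), with a median log2 fold change of 1.37 beside 0.04 over all genes. The list was already split at 36 h, with 23 members higher (18.4% of all genes) and a median of 0.74, but hardly at 24 h (3 members, 15.4% of all genes, median 0.02) or at 0 h (3 members, 7.11%, median 0.26). The largest differences at 48 h were those of Bub1 (1.91 ± 0.15), Anln (1.81 ± 0.17), Kif2c (1.70 ± 0.15), Cenpe (1.68 ± 0.14) and Ndc80 (1.66 ± 0.16), where Kif2c and Cenpe encode a microtubule depolymerase and a kinetochore motor, and Mki67 stood at 1.66 ± 0.08. Cdk1 (1.43 ± 0.10), Ccnb1 (1.46 ± 0.09) and Ccnb2 (1.30 ± 0.10) lay near the median of the list. Cdc20 (0.89 ± 0.10) and Nek2 (0.77 ± 0.14) were less concentrated. Small differences were found for some genes with a high level in uninjured liver, such as Rangap1 (0.27 ± 0.06), Tmpo (0.45 ± 0.06), Lbr (0.56 ± 0.07) and Cks2 (0.02 ± 0.06, not called, adjusted p = 0.73). This did not hold for every member at 3 CPM or more at 0 h. Hmgb2 was at 27.5, 48.8, 48.1 and 54.1 CPM in marker-rich spots at 48 h in A to D. In marker-poor spots Hmgb2 was at 9.32, 17.1, 16.8 and 23.4 CPM. Endothelial markers were also higher in marker-rich spots at 48 h, with 6 of 8 called higher, 1 lower and a median of 0.83, and their part in the members' difference was not tested. Hjurp was the 1 member called lower in marker-rich spots (33.6% of all genes were), by 0.39 ± 0.06 on the log2 scale (adjusted p = 8.9e-06), and it was also called lower there at 0 h, 24 h and 36 h.

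**Figure D4:**
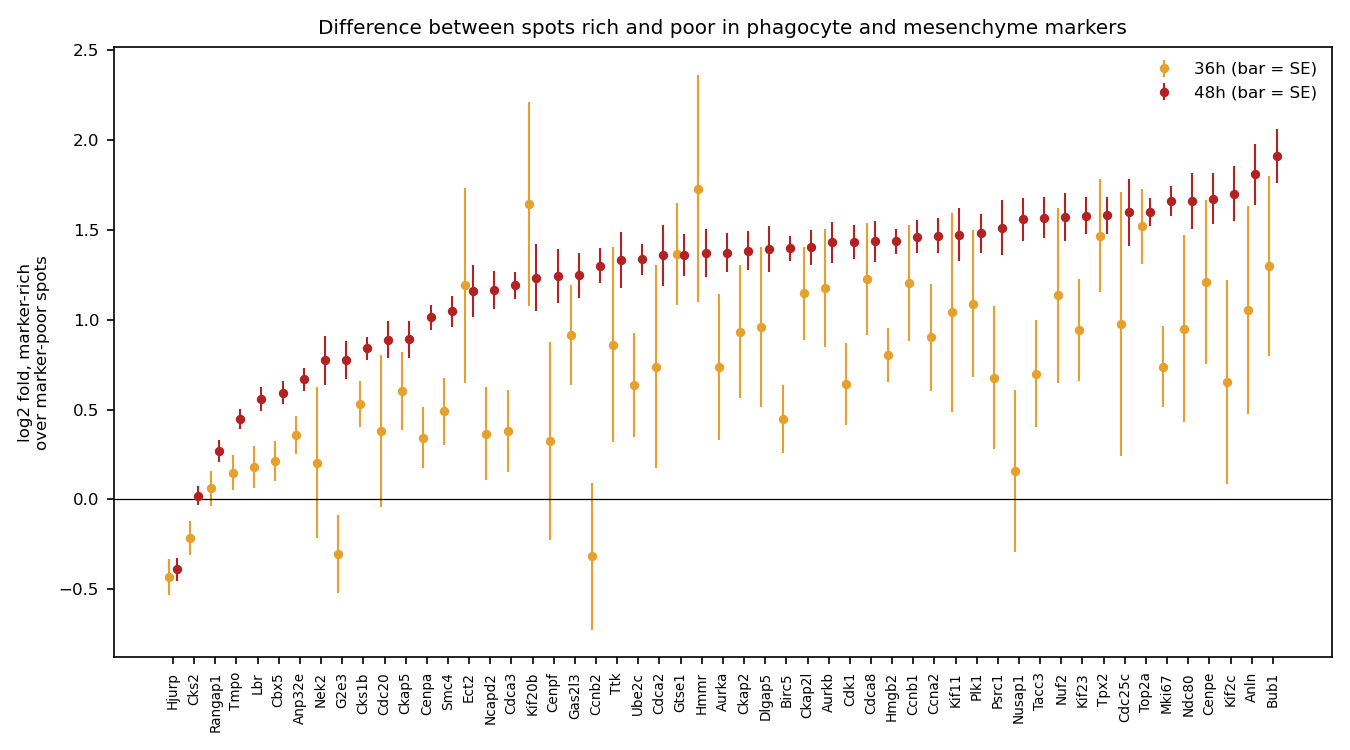
Log2 fold change of each gene between marker-rich and marker-poor spots at 36 h and 48 h, with bars of 1 SE, sorted by the 48 h value. At 48 h all genes but Hjurp and Cks2 are called above 0, and Ccnb2 lies below 0 at 36 h and at 1.30 at 48 h.

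The summed low-baseline level was 326, 611, 681 and 825 CPM in marker-rich spots and 99.0, 229, 235 and 370 CPM in marker-poor spots at 48 h in A to D. Every 48 h marker-poor class was above every whole section of earlier times (at most 74.1 CPM), where the marker-poor classes held 20.2 to 24.5 CPM at 0 h, 31.2 and 24.2 at 24 h and 64.0 and 56.7 at 36 h. At 48 h the level in marker-rich spots was 3.30, 2.66, 2.90 and 2.23 times that in marker-poor spots. Marker-rich spots at 48 h held 6.63% to 8.71% of their UMIs in hepatocyte markers and marker-poor spots 11.2% to 13.2%. The difference between the classes was itself larger at 48 h than at 0 h in 25 members (20.8% of all genes) and larger than at 36 h in 10 (4.65% of all genes). Ccnb2 showed the largest such change from 36 h (1.62 ± 0.41, adjusted p = 0.0088), and the change was also called for Nusap1, a spindle-assembly gene (1.40 ± 0.46, adjusted p = 0.046), G2e3 (1.08 ± 0.24, adjusted p = 0.0029) and Birc5 (0.95 ± 0.20, adjusted p = 0.0018). At 0 h marker-rich spots were shallower than marker-poor ones, with medians of 15197 to 22043 against 21910 to 32976 UMIs, and at 48 h the medians were 19070 to 27877.5 and 17495 to 27906.

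**Figure D5:**
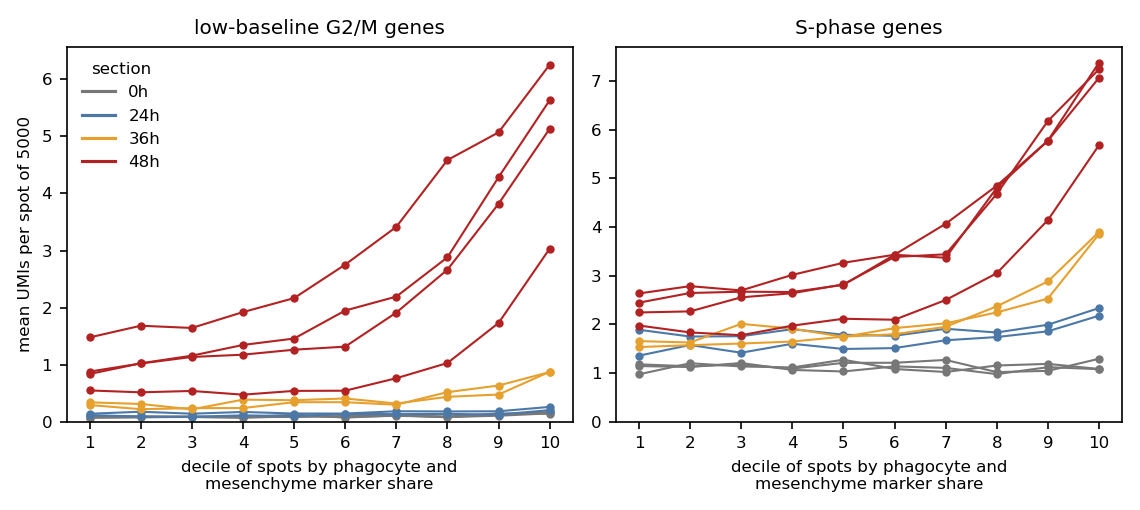
Mean UMIs per spot (of 5000) of the 41 low-baseline genes (left) and of 43 S-phase genes (right) in 10 equal bins of spots ordered by their share of phagocyte and mesenchyme markers, one line per section. At 48 h the top bin holds 4.24 to 6.74 times the UMIs of the lowest bin for the low-baseline genes and 2.80 to 3.23 times for the S-phase genes. The S-phase list was not cut by baseline.

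In bins of spots ordered by the same markers, the low-baseline sum was highest in the most marker-rich bin of each 48 h section. The lowest of the 10 bins held 0.55, 0.88, 0.84 and 1.48 UMIs per spot in A to D and the highest 3.03, 5.13, 5.63 and 6.26, ratios of 5.54, 5.85, 6.74 and 4.24. At 36 h the ratios were 2.58 and 2.98. Those of the 24 h sections were 1.86 and 1.77, and those of the 0 h sections 1.99, 1.51 and 2.49, where the bins held 0.0690 to 0.171 UMIs per spot. For the S-phase genes the ratios at 48 h were 2.88, 2.89, 3.23 and 2.80, and at 36 h 2.33 and 2.54. In each of the 4 sections at 48 h they were lower than those of the low-baseline members. The S-phase list was not cut by baseline, and summed to 286 CPM at 0 h against 22.7 for the low-baseline members. The part of this unlike baseline in the lower ratios was not tested. The ratio of the low-baseline members was also above the S-phase ratio in the sections before 48 h, where the S-phase ratios were 0.944 to 1.11 at 0 h and 1.24 and 1.61 at 24 h.

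Within the marker-poor spots, the upper tercile by periportal hepatocyte markers (portal-rich) was compared with the lower tercile (portal-poor). These 6 markers themselves changed with injury. Against 0 h, 4 were called lower and 1 higher at 24 h, and 3 lower and 0 higher at 48 h. The classes are therefore relative within a section, and whether they give position in the lobule after injury was not tested. At 48 h, 21 of 53 members were called lower in portal-rich spots (8.44% of 12763 genes tested), with a median log2 fold change of -0.39 beside -0.0032 over all genes. Examples were Kif11 (-0.96 ± 0.25), Aurkb (-0.92 ± 0.16), Top2a (-0.63 ± 0.16), Hmgb2 (-0.53 ± 0.10) and Cdk1 (-0.44 ± 0.09). By edgeR 0 members were called higher, also at an unadjusted p under 0.05, where 39 were lower. DESeq2 called 2 members lower and 0 higher, and by edgeR 10 were called without section C and 7 without section D. The summed low-baseline level was 88.3 and 97.6 CPM in portal-rich and portal-poor spots of section A, 213 and 221 in B, 167 and 276 in C and 287 and 422 in D. The portal-rich level was 0.905, 0.962, 0.606 and 0.679 of the portal-poor level in A to D. It was also below the portal-poor level in every earlier section, at 0.851 to 0.947 of it in the 0 h sections, 0.686 and 0.765 in those of 24 h, and 0.749 and 0.872 in those of 36 h. The median log2 fold change over the low-baseline members was -0.17 in the 0 h sections, -0.69 in those of 24 h, and stood at -0.34 in the 36 h and -0.44 in the 48 h sections. Before 48 h the members called lower were Hjurp in the 0 h and Gtse1 in the 24 h sections. Mesenchyme markers moved with this difference, at 0.0294% and 0.0341% of UMIs in portal-rich and portal-poor spots in A, 0.0362% and 0.0439% in B, 0.0600% and 0.0844% in C and 0.0593% and 0.0719% in D. Endothelial markers did so too. They were at 0.0256% and 0.0325% in A, 0.0247% and 0.0316% in B, 0.0300% and 0.0420% in C and 0.0320% and 0.0392% in D, with 5 of 8 called lower. The part of these markers in the difference was not tested. Against 0 h, the difference between these classes changed in 1 member, Hjurp, by 0.42 ± 0.12 (adjusted p = 0.025, beside 5.3% of all genes called in this direction).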

How the data were processed

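RNA of 11 frozen liver sections was measured with Visium. The authors counted reads with Space Ranger 1.0.0 on mm10 and deposited raw UMI counts per gene and spot for 4992 barcodes a section, with no spot removed. Seurat 4.1.1 is also named in the submitters' processing notes. As in the study's methods, spots under tissue were used if they had at least 800 genes and no more than 20% of UMIs from mitochondrial genes, and their counts were summed per section. Groups came from the sample labels. Genes were kept with filterByExpr, scaled with TMM and tested in 1 fit over all 11 sections with edgeR 4.0.16 (quasi-likelihood, robust) in R 4.3.3, with limma 3.58.1 installed beside it. Adjusted p-values are Benjamini-Hochberg over all genes tested, all tests were two-sided, and a gene was called at an adjusted p under 0.05. DESeq2 1.42.0 was an alternative, as were other scalings, filters, subsets of sections and a replicate block. The scripts were tested on simulated data with known fold changes.

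For shares of spots, each spot was thinned to 5000 UMIs and shallower spots were left out, 1 to 260 per section. Spot classes were made within each section from marker shares that hold no member, summed, and tested with the section as a block. Shares and ratios of spots are given without an error of their own, and a ± beside a share of spots is the SD between sections.

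Values in every section are given for the 2 members of each role group with the highest 48 h mean, members called at 24 h, called lower at any time or not called higher at 48 h, and the 3 largest and 3 smallest shares of the rise at 36 h. Other genes given with values in every section were chosen to show a contrast within a role group, after their values were seen. Genes of other lists are named by smallest p, up to 4 a list, except where stated. The members, lists and tests were chosen with earlier results of these data known, and the low-baseline split and the counts of groups without overlap were added after the values were seen. Python 3.11.15, numpy 2.4.6, pandas 2.3.3, scipy 1.17.1 and matplotlib 3.10.9 were used for spots and plots. Promoter windows came from RefSeq tables for GRCm38.p6, in which 7 members were not found. Reads of genes with near-identical copies could be split by the authors' counting, which was not tested.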

Additional observations from a re-analysis of the deposited data

Results flagged for a closer look

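The difference between marker-rich and marker-poor spots was itself larger at 48 h than at 0 h in 25 members and larger at 48 h than at 36 h in 10, by an interaction term in the edgeR fit. The difference between portal-rich and portal-poor spots changed from 0 h to 48 h in 1 member, Hjurp.

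Spots outside the tissue, which no comparison used, held UMIs of the low-baseline members above the highest 0 h section, which had 15.5 CPM of the unscaled total. The values in CPM were 37.7 and 17.9 in the 24 h sections A and B, 55.2 and 49.0 in the 36 h sections A and B, and 166, 384, 384 and 579 in the 48 h sections A to D. On tissue the same genes stood at 33.4 and 24.6 CPM at 24 h, 81.4 and 77.9 at 36 h, and 198, 413, 457 and 608 at 48 h, so that 24 h section A was higher outside the tissue than on it. Of 58 groups of 4 sections tested for a section far from the others by Dixon's criterion, none passed, where chance gives 5%. Only 48 h has 4 sections, so these tests share the same sections and are not independent. They cannot show that no section stands apart, and section A was lowest in 52 of 53 members.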

How the results depend on the processing

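Of the group-level results under their alternatives, 161 values stayed within the spread between sections or within 1.5 times the reported count and 44 moved further. Among the single-gene fold changes and the counts of low-baseline members, 967 kept their direction and side of the threshold or stayed within 1.5 times the count, 94 lost a call, 4 gained one, 4 turned sign and 3 moved. The 3 were counts of low-baseline members higher at 24 h, at 7 with total-count scaling, 4 with DESeq2 and 5 without 48 h section A. The turned ones were Rangap1 at 48 h against 0 h, at -0.01 without 0 h section 2, -0.02 without 0 h section 3, -0.03 without 48 h section B and -0.0815 without 48 h section D, and leaving out 1 section at a time it ranged from -0.0815 to 0.13. Total-count scaling gave 10 members higher at 24 h against 0 h, 0 members with a called difference of steps and a summed level of 213 CPM at 0 h. With only the compared sections in the fit, 7 members were higher at 24 h against 0 h, 0 at 36 h against 24 h and 0 at 48 h against 36 h. DESeq2 called 1 member lower at 36 h against 0 h. Leaving out 1 section at a time, the members called higher numbered 2 to 7 at 24 h, 18 to 37 at 36 h and 48 to 50 at 48 h against 0 h, 1 to 26 at 36 h against 24 h, 3 to 46 at 48 h against 36 h and 44 to 51 at 48 h against 24 h. The members called lower numbered 1 to 3 at 24 h and 0 to 0 at 36 h and 48 h, and those with a called difference of steps 0 to 4. Between marker classes 52 to 53 members were called and between portal classes 7 to 24. The summed level ranged over 265 to 269 CPM at 0 h, 263 to 315 at 24 h, 310 to 354 at 36 h and 669 to 830 at 48 h. The mean log2 CPM with a prior count of 0.5 was -0.27 at 0 h and 1.25 at 36 h, and the median over members was -0.52 at 0 h, -0.46 at 24 h and 0.98 at 36 h. Members detected per spot at 0 h, 24 h, 36 h and 48 h were 0.419, 0.569, 0.703 and 1.66 at 2000 UMIs and 1.87, 2.39, 3.07 and 6.97 at 10000 UMIs, by construction of the thinning. The causes of the other moves were not tested.

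The section letters at 24 h, 36 h and 48 h were tried as a replicate block, with 0 members then called higher at 36 h against 24 h, 0 at 48 h against 36 h and 34 at 48 h against 24 h. Deviations of same-letter sections from their group means correlated at 0.287 between 24 h and 36 h, which with 2 sections a time is the same value for A and for B, at -0.124 and 0.0736 with 48 h for A and at -0.122 and -0.241 for B. These values are too few to show whether the letters pair the sections, and the labels do not say so. At 0 h, several members rest on under 10 UMIs in a section, which limits their fold changes.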
